A study of Mus musculus with 2 samples.

Results

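The FGF receptor genes Fgfr1, Fgfr2 and Fgfr3 and 7 genes that FGF signaling is known to induce, Spry1, Spry2, Spry4, Dusp6, Etv1, Etv4 and Etv5, were followed in the brain of Plzf lu/lu mouse embryos. They were taken by gene name, with every probe the array carries for them, and are 10 of the 37071 gene names with a value. Plzf lu/lu embryos are homozygous for luxoid, an inherited point mutation of the transcription factor gene Plzf (Zbtb16) that is present in all their cells, and the labels name the wild type embryos as C57BL/6 without giving the background of the luxoid strain. RNA from the forebrain and midbrain at E10.5 was compared on 2 arrays, each with RNA from wild type brain labeled with Cy3 and RNA from Plzf lu/lu brain labeled with Cy5, and the labels call the arrays biological replicates. The dyes were not exchanged, so the dye and the genotype cannot be told apart, and the number of embryos behind each array is not given in the sources used here. The values are processed intensities, called signals here, and each ratio is that of Plzf lu/lu over wild type on one array. The rule for the members itself used no measured value.

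FGFs are secreted proteins that bind receptor tyrosine kinases at the cell surface together with heparan sulfate. The activated receptor recruits adaptors and switches on Ras and the MAP kinase ERK, and the ETS factors Etv1, Etv4 and Etv5, known as the PEA3 group, carry the signal to the genome. Sprouty proteins and the ERK phosphatase Dusp6 are induced by the same signal and damp it, and in the embryonic brain FGFs from the isthmus and the rostral forebrain pattern the midbrain and the telencephalon.

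Of the 20 probes for these genes, 16 were well above background in all 4 channels. Each gene was represented by its brightest probe, and a gene was tested when the signal was above 200 with a signal-to-noise ratio of at least 5 in every channel. This left 8 of the 10 genes, among 10600 tested genes on the arrays. Fgfr2 missed the threshold with both Plzf lu/lu signals just under 200, and Spry4 was far below it. The probes of the genes with the largest ratios are shown by the last 30 of their 60 bases, since these are what the ratios were read on, with the polyadenylation signal AATAAA in capitals where it occurs:
Etv1, chr12:39593054-39593113, plus strand: tgccatcctgctgttttggtactacaaata
Etv5, chr16:22381387-22381446, minus strand: ctgtgtacAATAAAgaagattgctttcctt
Etv4, chr11:101631057-101631116, minus strand: ttAATAAAgcctctgcttctccggttgttt
Dusp6, chr10:98729985-98730044, plus strand: gggagaattaacttgctccatgatgttcgt
Fgfr3, chr5:34079649-34079708, plus strand: ttactttccaaaaAATAAAgagataactgg
The positions are those of the whole probe in build mm9, as in the deposited annotation, which does not say in which part of the transcript they lie. Searched on the strand of the probe, AATAAA was found in 3 of the 10 brightest probes of these genes and in 9.77% of all 56605 probes. No run longer than 10 bases was shared by probes of different members. The Etv4 probe shares a run of at least 20 bases with a probe for LOC102634429, and the full length of the run was not measured. No other member probe shares a run of 20 bases with a probe of a gene name outside the members.

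Across all genes the arrays were centered near equality, with a median log2 ratio of 0.020 on array 1 and -0.0047 on array 2. Between 62.3% and 74.7% of the 59305 gene spots per array were well above background, and none was saturated. Repeated spots of a probe differed by a median SD of 0.04 on the log2 scale within an array. Zbtb16 itself, read at chr9:48462419-48462478, gave a wild type signal of 433 and a Plzf lu/lu signal of 172 on array 1, and of 546 and 211 on array 2. Its transcript was therefore lower in both Plzf lu/lu samples (log2 ratio -1.33 and -1.37), and it was not tested because one signal lay under 200. A point mutation need not lower the transcript, so this level alone does not check the genotype.

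On their brightest probes the PEA3 factors had higher signals in both Plzf lu/lu samples than in both wild type samples, by most for Etv1 and by least for Etv4. Only Etv1 exceeded 1.3-fold on both arrays, none passed an adjusted p of 0.05 in limma, and the dimmer Etv4 probe did not share the direction on array 2. These ETS factors bind DNA at sites with a GGAA core and are among the most widely used readouts of FGF activity. The wild type signal of Etv1 was 353 on array 1 and 358 on array 2, and the Plzf lu/lu signal was 754 and 624. The wild type samples were nearly the same, and both Plzf lu/lu samples lay well above them. The ratio was 2.14 on array 1 and 1.74 on array 2, which averages 0.95 ± 0.21 on the log2 scale (SD, n = 2 arrays), with a standard error of 0.10 and an adjusted p of 0.0510 in limma (unadjusted p = 9.35e-05). Etv1 was thus above 1.3-fold on both arrays but just missed the threshold of 0.05. It passed in limma with a trend of the variance on signal (adjusted p = 0.0205), where 293 of all tested genes were called higher and 100 lower. It also passed with each probe tested on its own (adjusted p = 0.0480), where 178 of 13186 probes were called higher and 55 lower. Etv1 did not pass with the deposited log2 table (adjusted p = 0.198 in limma), the well above background filter (0.251) or no filter (0.505). The study placed Etv1 in its own list of changed genes from these arrays, so its direction is not independent evidence.

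The other probes for Etv1 were dim. One, annotated to the transcript AK137368, gave signals between 8.02 and 14.6 and log2 ratios of 0.28 and 0.39, in the same direction as the bright probe but smaller. The other was not well above background.

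Etv5 gave a wild type signal of 1468 and a Plzf lu/lu signal of 2561 on array 1. On array 2 the signals were 1433 and 1737. The wild type samples again lay close together, and the Plzf lu/lu samples were above both of them but far from each other. The log2 ratio was 0.80 on array 1 and 0.28 on array 2, with a mean of 0.54 ± 0.37 (SD, n = 2 arrays) and an adjusted p of 0.0871 in limma. Only array 1 exceeded 1.3-fold for Etv5.

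Etv4 had wild type signals of 418 and 425 and Plzf lu/lu signals of 537 and 446 on arrays 1 and 2. The excess was small on both arrays, with log2 ratios of 0.36 and 0.07, and the adjusted p was 0.210 in limma. The second Etv4 probe, with signals from 75.9 to 91.2, gave 0.20 and -0.07, so the sign on array 2 differed between the probes. The bases shared by the brighter Etv4 probe were matched to the gene name LOC102634429 and not to a given probe of it. Both probes for LOC102634429 were lower in Plzf lu/lu on both arrays. The log2 ratios were -0.14 and -0.08 for the brighter one and -0.08 and -0.49 for the dimmer one.

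Among the feedback inhibitors that were tested, Dusp6 had the largest ratios without passing the threshold in limma, and Spry1 and Spry2 were close to equality. Dusp6 is a cytoplasmic phosphatase that removes the activating phosphates from ERK. Its wild type signal was 2591 on array 1 and 2923 on array 2, and its Plzf lu/lu signal was 4542 and 3441. Both Plzf lu/lu samples lay above both wild type samples. As for Etv5, the excess was mostly on array 1, with log2 ratios of 0.81 and 0.24, a mean of 0.52 ± 0.41 (SD, n = 2 arrays) and an adjusted p of 0.0988 in limma.

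Spry1 and Spry2 encode inhibitors that act between the receptor and the MAP kinase cascade. The Spry1 probe (chr3:37543194-37543253) gave wild type signals of 1009.8 and 830.1 and Plzf lu/lu signals of 1046 and 845 on arrays 1 and 2. The arrays differed more than the genotypes did, and the mean log2 ratio was 0.04 ± 0.02 (SD, n = 2 arrays; adjusted p = 0.760 in limma). For Spry2 (chr14:106291385-106291444) the wild type signals were 356 and 345 and the Plzf lu/lu signals 376 and 342. The groups overlapped, with a mean log2 ratio of 0.03 ± 0.07 and an adjusted p of 0.801 in limma, and the second Spry2 probe gave 0.04 and -0.02. Standard errors of 0.07 for Spry1 and 0.08 for Spry2 leave room for small differences.

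Spry4, on chromosome 18, was too dim for a ratio to be relied on. The signals were 14.5 in wild type and 28.0 in Plzf lu/lu on array 1, and 15.6 and 16.0 on array 2. Apart from Plzf lu/lu on array 1 the signals were nearly equal, and the log2 ratio of 0.95 on array 1 rests on a single channel.

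The receptor genes showed no shared direction. Fgfr3, which marks progenitors of the caudal forebrain and other parts of the neural tube, gave wild type signals of 812 and 796 and Plzf lu/lu signals of 864 and 1132 on arrays 1 and 2. Both Plzf lu/lu signals were above both wild type signals, but the excess was mainly on array 2, the opposite of Etv5 and Dusp6. The log2 ratios were 0.09 and 0.51, with a mean of 0.30 ± 0.30 (SD, n = 2 arrays) and an adjusted p of 0.168 in limma. A second probe, which covers 235 bases of the genome (chr5:34077856-34078090) and therefore spans an intron, repeated this order with 0.08 and 0.39 at signals from 57.6 to 88.5. The third Fgfr3 probe was not well above background.

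Fgfr1, the receptor most broadly used in the early telencephalon, had overlapping signals in the genotypes. Its probe (chr8:26685072-26685131) gave 2672 and 2576 in wild type and 2798 and 2486 in Plzf lu/lu. The Plzf lu/lu samples lay on either side of the wild type samples, and the mean log2 ratio was 0.01 ± 0.08 (SD, n = 2 arrays; adjusted p = 0.958 in limma). Of the 3 dimmer Fgfr1 probes, with signals from 31.0 to 119, one was lower in Plzf lu/lu on both arrays (log2 ratio -0.10 and -0.19) and the others changed sign between the arrays, the widest at 0.74 and -0.27.

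Fgfr2 (chr7:137307473-137307532) gave 209 and 213 in wild type and 194 and 195 in Plzf lu/lu. It was the member with both Plzf lu/lu signals below both wild type signals, by a log2 ratio of -0.11 and -0.13, and was not tested. This direction turned (0.28) when the ratios were centered on the median after another background correction, which moved the median of all tested genes by 0.55. Its second probe, with signals no higher than 14.1, was also lower on both arrays (log2 ratio -0.11 and -0.39).

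**Figure D1:**
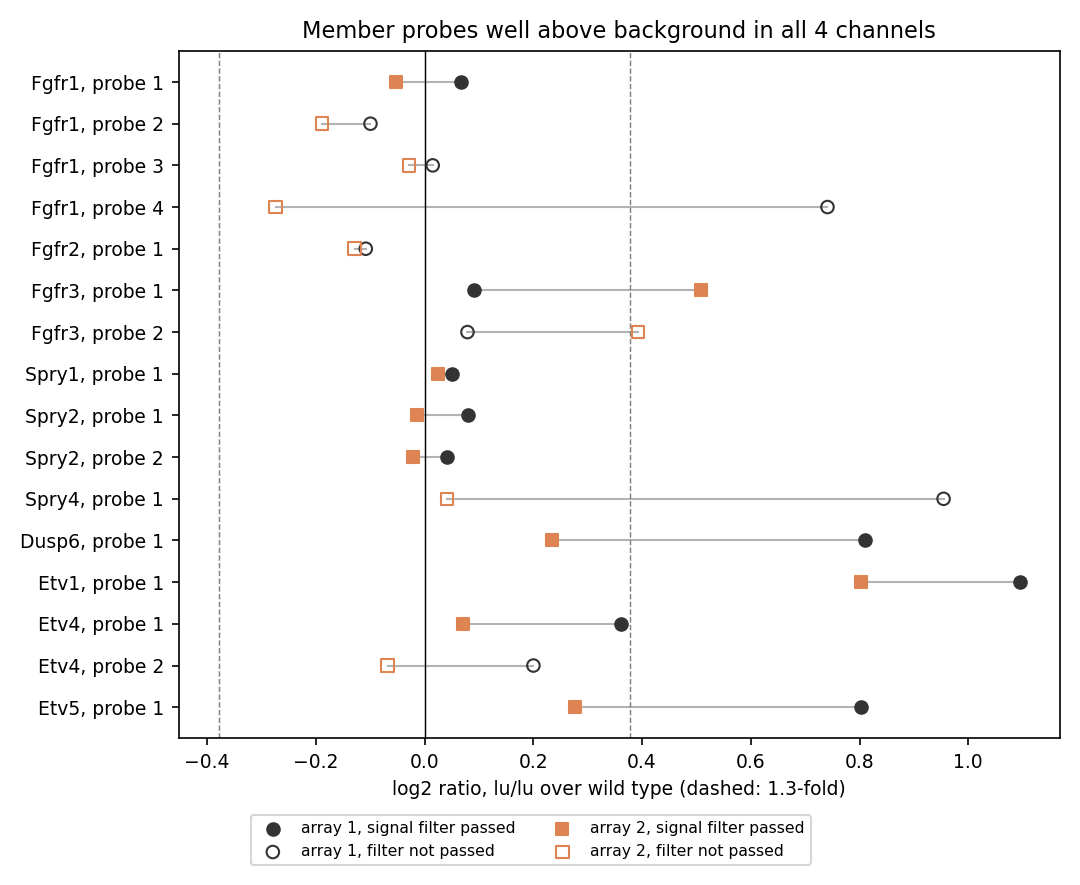
Log2 ratio of Plzf lu/lu over wild type (x axis) for each of the 16 probes well above background in all 4 channels, with array 1 as circles and array 2 as squares. Filled symbols passed the signal filter, and dashed lines mark 1.3-fold. Etv1 is beyond the line on both arrays. On array 1 alone Etv5, Dusp6 and the dim probes of Spry4 and Fgfr1 (probe 4) are beyond it, and on array 2 alone both Fgfr3 probes are.

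In all, 1 of the 8 tested members, Etv1, was higher by more than 1.3-fold on both arrays, beside 2.58% of all tested genes (274 of 10600). None was lower by this measure, beside 0.736% of all tested genes. In limma no member passed an adjusted p of 0.05, where 3 genes or 0.0283% of those tested did, and 4 members (Etv1, Etv5, Dusp6 and Fgfr3) had an unadjusted p below 0.05, as did 2943 (27.8%) of all tested genes. Both Plzf lu/lu signals were above both wild type signals for 5 of the 8 members (Fgfr3, Dusp6, Etv1, Etv4 and Etv5), and this held for 30.5% of all tested genes. No tested member had both below, which held for 26.3%. The median of the mean log2 ratio over the tested members was 0.26, and over all tested genes it was 0.01. With 1 residual degree of freedom, these limma p-values rest on variance pooled across genes. They cannot separate the genotype from the dye.

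The arrays agreed on the order of the members only in part. The ratio was higher on array 1 than on array 2 for 7 of the 8 tested members, with Fgfr3 as the exception, and for 53.6% of all tested genes. On array 1 alone, Etv1, Etv5 and Dusp6 were above 1.3-fold, beside 8.25% of all tested genes, and on array 2 alone Etv1 and Fgfr3 were, beside 4.5%. The gap between the arrays was 0.57 on the log2 scale for Dusp6 and 0.53 for Etv5, and 2.59% and 3.14% of all tested genes had a wider gap. For Fgfr3 this share was 5.58%, for Etv1 13.4% and for Etv4 13.6%.

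**Figure D2:**
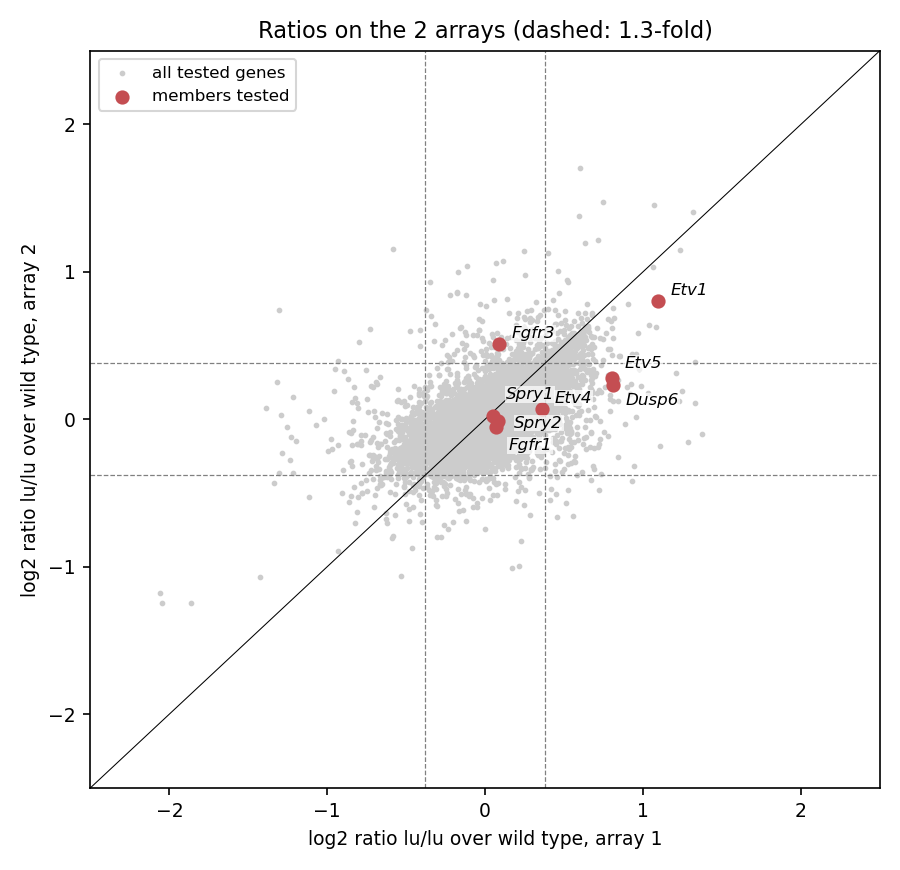
Log2 ratio of Plzf lu/lu over wild type on array 1 (x axis) against array 2 (y axis) for all tested genes (gray) and the 8 tested members (red), with dashed lines at 1.3-fold and the diagonal marking equal ratios. Dusp6 and Etv5 lie together to the right of the diagonal, Fgfr3 lies above it, and 1 tested gene falls outside the axes.

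The promoters of Dusp6 and Etv5 are shown because these genes had nearly the same ratios on both arrays. The 250 bases before the start site were taken from RefSeq (build GRCm38.p6), 5′ to 3′ on the strand of the gene, with CCAAT or its reverse complement ATTGG in capitals:
Dusp6, chr10:99262981-99263230, plus strand: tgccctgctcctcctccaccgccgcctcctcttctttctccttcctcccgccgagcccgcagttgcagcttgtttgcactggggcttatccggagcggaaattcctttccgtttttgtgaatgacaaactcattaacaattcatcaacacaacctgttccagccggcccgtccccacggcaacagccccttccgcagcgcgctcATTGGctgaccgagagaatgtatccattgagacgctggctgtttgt
Etv5, chr16:22439571-22439820, minus strand: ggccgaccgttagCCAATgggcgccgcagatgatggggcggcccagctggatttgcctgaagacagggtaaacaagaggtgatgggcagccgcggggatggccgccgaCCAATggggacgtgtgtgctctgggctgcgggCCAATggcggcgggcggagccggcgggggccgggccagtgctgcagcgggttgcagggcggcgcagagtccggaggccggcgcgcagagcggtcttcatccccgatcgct
Windows were found for 7 of the 10 members, 10 windows in all. CCAAT was present on either strand in 5 of them and in 33.9% of all 32851 windows, and the Etv5 window shown holds it in 3 places. The ETS motif CCGGAA was in none of the 10 windows on either strand and in 12.0% of all windows, and GGAAGT, another ETS motif, was in 1, a second start site of Etv5, and in 19.7% of all windows. Both ETS motifs hold the letters GGAA and can overlap. These matches describe the letters only.

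The rest of the FGF pathway was read from 82 further genes in 5 lists, of which 49 were tested. Above 1.3-fold on both arrays were 4 of them, beside the 2.58% of all tested genes, and below 0, beside 0.736%. Their median log2 ratio was 0.05, and in limma none passed an adjusted p of 0.05 while 18 of the 49 had an unadjusted p below 0.05, beside 27.8% of all tested genes. Gpc4, a glypican that carries heparan sulfate, had wild type signals of 569 and 489 and Plzf lu/lu signals of 825 and 717. Its ratios were the most alike of the 4 (log2 ratio 0.54 and 0.55; adjusted p = 0.0510 in limma). Hs6st2, which adds sulfate groups to heparan sulfate, had wild type signals of 239.6 and 262 and Plzf lu/lu signals of 419 and 356 (log2 ratio 0.81 and 0.44; adjusted p = 0.0575 in limma). Fgfbp3, a secreted FGF-binding protein, had 273 and 257 in wild type and 375 and 516 in Plzf lu/lu (log2 ratio 0.46 and 1.01; adjusted p = 0.0603 in limma), and like Etv1 it is in the study's own list from these arrays. Sos1, the exchange factor that activates Ras, had 369.8 and 418 in wild type and 647 and 615 in Plzf lu/lu (log2 ratio 0.81 and 0.55; adjusted p = 0.0510 in limma). In each of these genes both Plzf lu/lu signals were above both wild type signals.

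Of the 18 secreted FGF ligands, 4 were bright enough to be tested, none of them beyond 1.3-fold on both arrays, with a median log2 ratio of -0.18. Leaving out array 1 moved this median to -0.04, and asking for the filter in at least 1 channel moved it to -0.06. Fgf8, the ligand of the isthmus and the rostral forebrain, had wild type signals of 545 and 494 and Plzf lu/lu signals of 721 and 565 on arrays 1 and 2. The Plzf lu/lu signals were higher, by a log2 ratio of 0.40 and 0.19 (adjusted p = 0.108 in limma). The other tested ligands, Fgf15, Fgf18 and Fgf23, had ratios below equality on both arrays. Fgf15, itself a target of FGF8 in the midbrain region, had 382 and 319 in wild type and 215 and 303 in Plzf lu/lu, so that nearly all of the difference was on array 1 (log2 ratio -0.83 and -0.08; adjusted p = 0.170 in limma). For Fgf18, named after its values were seen, the log2 ratio was -0.25 and -0.35 (adjusted p = 0.0919 in limma). Fgf17, a relative of Fgf8 at the isthmus, was under the filter with 234 and 171 in wild type and 201 and 116 in Plzf lu/lu (log2 ratio -0.22 and -0.56).

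Some pathway genes were under the signal filter but well above background in all 4 channels. Of these, Fgf9, Cnpy1 and Fgfbp1 were beyond 1.3-fold one way on both arrays, and they too are named after their values were seen. Among all 23281 genes well above background in all 4 channels, bright ones included, 587 were higher and 482 lower by this measure. Fgf9 had wild type signals of 118 and 153 and Plzf lu/lu signals of 239 and 248 (log2 ratio 1.02 and 0.70). Cnpy1, a regulator of FGF signaling at the isthmus that is likewise in the study's own list, had 206 and 274 in wild type and 84.1 and 130.2 in Plzf lu/lu (log2 ratio -1.29 and -1.08). Fgfbp1, another secreted FGF-binding protein, had 64.5 and 40.8 in wild type and 40.6 and 26.2 in Plzf lu/lu (log2 ratio -0.67 and -0.64). None of them was tested.

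Other receptors and partners gave a median log2 ratio of 0.16 over 13 tested of 20 genes, 3 of them above 1.3-fold on both arrays and none below, and the median was 0.02 without array 1 and 0.03 without the signal filter. Fgfr4 was under the filter and slightly lower in Plzf lu/lu (110 and 126 against 103 and 115, log2 ratio -0.10 and -0.13), much as Fgfr2 was. Fgfrl1, a receptor without a kinase, had log2 ratios of 0.04 and 0.27 (adjusted p = 0.296 in limma). The adaptors and the Ras and MAP kinase cascade gave a median of 0.06 over 19 tested of 22 genes, with Sos1 the one beyond 1.3-fold. Stat3, a transcription factor that receptor kinases can activate, stood at 0.05 on both arrays (adjusted p = 0.690 in limma).

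Feedback inhibitors outside the members gave a median log2 ratio of 0.08 over 6 tested of 10 genes, and none was beyond 1.3-fold on both arrays. On array 1 it was 0.21 and on array 2 it was -0.06, so its direction rests on array 1, and it was 0.01 with the trend on GC content removed. Dusp14 (log2 ratio 0.30 and 0.31; adjusted p = 0.0861 in limma) and Dusp4 (0.31 and 0.20; adjusted p = 0.114 in limma) are phosphatases named after their values were seen. They were the 2 of the 6 tested with an unadjusted p below 0.05 in limma, beside 27.8% of all tested genes. Il17rd (Sef), a membrane inhibitor that often shares its expression with Fgf8, had a wild type signal of 680.3 and a Plzf lu/lu signal of 950 on array 1 and of 702 and 633 on array 2. The direction thus differed between the arrays (log2 ratio 0.48 and -0.15; adjusted p = 0.504 in limma). Spred1, a Sprouty-related inhibitor of Ras activation, was near equality (log2 ratio 0.03 and -0.06; adjusted p = 0.910 in limma). ETS and early ERK-response factors outside the PEA3 group gave a median of -0.07 over 7 tested of 12 genes. None of them was beyond 1.3-fold on both arrays. None had an unadjusted p below 0.05 in limma, beside the same 27.8% of all tested genes. The PEA3 factors themselves had a median of 0.54, with 0.80 on array 1 and 0.28 on array 2.

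**Figure D3:**
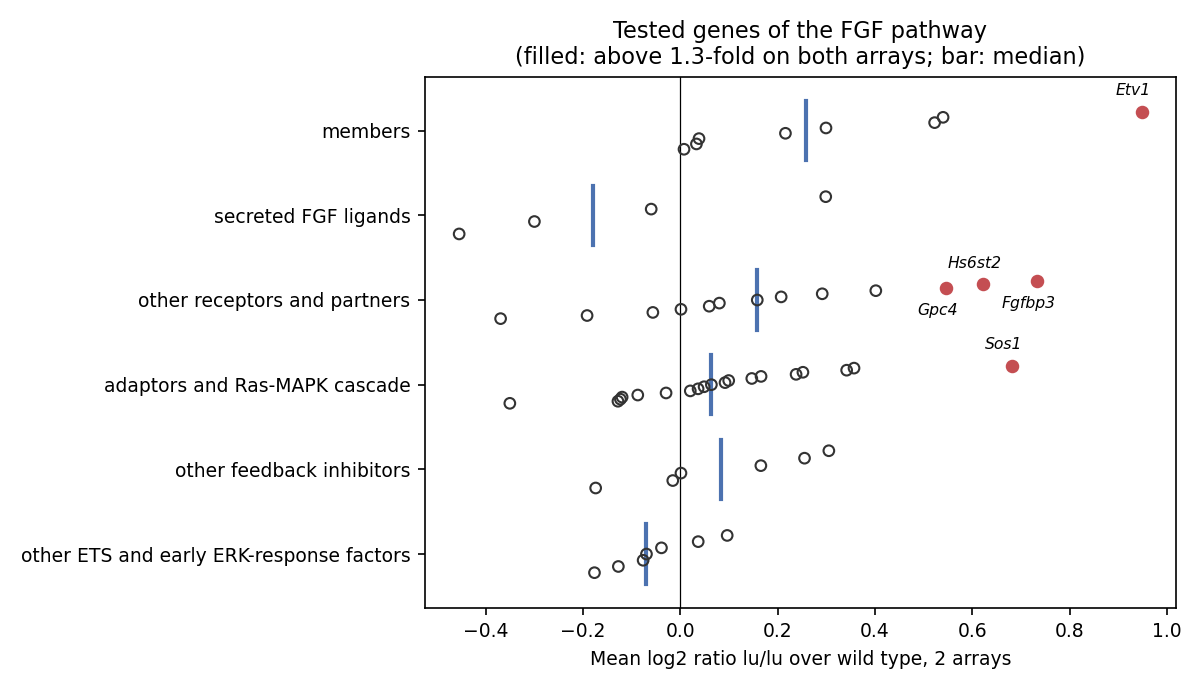
Mean log2 ratio of Plzf lu/lu over wild type on the 2 arrays (x axis) for each tested gene, grouped into the members and the 5 other lists of the FGF pathway, with a bar at the median of each group. Filled points were above 1.3-fold on both arrays: Etv1, Gpc4, Hs6st2, Fgfbp3 and Sos1.

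Markers of brain regions were read beside these values. In bulk RNA such as that of the forebrain and midbrain here, fewer cells of a type and less RNA per cell cannot be told apart. Over 8 forebrain markers, all well above background, the summed signal was 4031 to 5777 in wild type and 6925 to 6999 in Plzf lu/lu, and 2 of the 6 tested were above 1.3-fold on both arrays. Over 8 midbrain and isthmus markers the sum was 3745 to 4013 in wild type and 2370 to 2642 in Plzf lu/lu, but En2 alone carried this difference, with 1917 and 2310 in wild type and 527 and 974 in Plzf lu/lu. With En2 left out, a choice made after its values were seen, the other 7 summed to 1828 and 1703 in wild type and 1842 and 1667 in Plzf lu/lu on arrays 1 and 2. En2 was the 1 of 4 tested genes that was beyond 1.3-fold, and En1 was not well above background. The nearly equal sums without En2 held genes of opposite direction. Sp8 was higher on both arrays (log2 ratio 0.46 and 0.23). Wnt1 (-0.60 and -0.21), Lmx1b (-0.03 and -0.19), Pax2 (-0.10 and -0.01) and Pax8 (-0.52 and -0.58) were lower on both. Pax5 changed sign (-0.26 and 0.22), and the Pax genes were under the signal filter. Of 7 hindbrain markers, 5 (Egr2, Hoxa2, Hoxa3, Hoxb1 and Hoxb2) were not well above background and none was tested. The ventral midline sum over 6 markers was 1745 to 1967 in wild type and 2518 to 3445 in Plzf lu/lu, and the neuron sum over 8 was 4955 to 5446 and 5899 to 7906. These regions differ in which FGF genes they use, and the part of tissue makeup in the values of Etv1, Etv5, Dusp6, Fgfr3, Fgf8 and Fgf15 was not tested.

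Markers of other tissues differed between the arrays or between the genotypes. The erythroid sum over 8 markers gave a log2 ratio of -0.90 on array 1 and 0.29 on array 2, and the surface ectoderm sum 0.58 and -0.38. The endothelial sum was lower on both arrays (log2 ratio -0.24 and -0.49), the mesenchyme and neural crest sum was near equality (0.08 and -0.05), and the neuroepithelial sum, over 8 markers that were all well above background, gave -0.05 and 0.36. For the neuron sum these ratios were 0.12 and 0.67, for the forebrain sum 0.28 and 0.78, and for the ventral midline sum 0.53 and 0.81. The sums for blood, surface ectoderm, neurons, forebrain, neuroepithelium, ventral midline and endothelium thus differed between the arrays, as did Dusp6, Etv5 and Fgfr3, and their part in those gaps was not tested.

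The ratio also moved with the base composition of the probe. Over the 10600 tested genes, which are not independent replicates, Spearman's rho of the mean log2 ratio with the GC content of the probe was -0.33. The probe for Etv1 had a GC content of 41.7%, equal to the median of tested genes. With the GC trend removed, the mean log2 ratio of Etv1 was 0.94, and Fgfr1 and Spry2 changed sign, to -0.04 and -0.05.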

How the data were processed

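Brain RNA of E10.5 embryos, wild type in Cy3 and Plzf lu/lu in Cy5, was hybridized to 2 Agilent SurePrint G3 mouse arrays, with groups taken from the sample labels. The authors processed the scans with Feature Extraction 10.7.3.1, which subtracted background and normalized the dyes within each array. The deposited scanner output holds the log10 ratio (Cy5 over Cy3) and, for each channel, the intensity of spot and background before and after this processing. The same ratios were also deposited as a log2 table, within 0.005 of these values. Probe positions are in build mm9.

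Controls and outliers were removed, repeated spots were averaged as log2 values, and the probe with the highest mean signal stood for a gene. Tested genes had processed signals over 200 and a signal-to-noise ratio of 5 or more in all 4 channels. It was counted when its ratio was above 1.3, or below the inverse, on each array. Log2 ratios were fitted with limma 3.58.1 in R 4.3.3 (intercept only, eBayes), adjusted by Benjamini-Hochberg over all 10600 tested genes. With 1 residual degree of freedom, the test rests on variance pooled across genes. An exact sign-flip test of 2 arrays cannot go below p = 0.5. The number of arrays limits the precision. The procedure was tested on simulated data. Sequences were read with Python 3.11.15 and pandas 2.3.3, and figures drawn with matplotlib 3.10.9.

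The members, the 5 pathway lists, the 10 marker lists and the tests were chosen with earlier results of these data known. Named genes are the 10 members with every probe, Zbtb16, tested pathway genes that exceeded 1.3-fold one way on both arrays, and Fgf8, Fgf15, Fgf17, Fgfr4, Fgfrl1, Il17rd, Spred1 and Stat3. Of the 82 pathway genes, 71 had a probe accession that matched RefSeq. Replicate numbers pair the samples because a number marks a shared array, and the pairing is in the ratio. Alternatives were normexp background correction (offset 50) with loess or median centering, the deposited log2 table, other filters, other rules for probes, removal of the GC trend (lowess, span 0.67), no pairing, eBayes with trend, 1.5-fold, and each array alone.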

Additional observations from a re-analysis of the deposited data

How the results depend on the processing

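The mean log2 ratio of Etv1 was between 0.94 and 1.41 over the alternatives on both arrays. Its adjusted p in limma was 0.0205 with a trend in eBayes and 0.0480 with each probe on its own (1 member called in each), and between 0.0533 and 0.505 otherwise, apart from median centering. Without the pairing by array (no replicate block) it was 0.0533 and no gene was called higher. The number of genes called higher was also 0 after normexp with loess, with the deposited table, with the well above background filter, without a filter and with the mean over probes, 1 (and 1 lower) with the filter in 1 channel, 1 with the GC trend removed, 178 (and 55 lower) with each probe on its own and 293 (and 100 lower) with the trend. The counts beyond 1.3-fold were 587 higher and 482 lower with the well above background filter, 1696 and 2178 without a filter, and 41 and 12 at 1.5-fold. Without replicate 1 or 2 they were 481 to 881 higher and 215 to 619 lower, and 2 to 3 members were higher. Normexp with median centering shifted the median of tested genes by 0.55, gave 6698 higher and 4 lower beyond 1.3-fold and 9636 and 7 by limma, called all 8 members both ways and turned Fgfr2 to 0.28. It moved the pathway medians to 0.37 (ligands), 0.73 (receptors and partners), 0.62 (adaptors and cascade, and feedback inhibitors) and 0.42 (ETS factors). There Fgfr1 (0.59), Spry1 (0.60) and Spry2 (0.50) lay near that median. The GC trend removed turned Fgfr1 to -0.038 and Spry2 to -0.051. The ligand median was -0.056 with the well above background filter, -0.060 with the filter in 1 channel, and -0.22 to -0.043 without replicate 1 or 2. That of receptors and partners was 0.030 with the well above background filter or no filter, and 0.022 to 0.19 without replicate 1 or 2. That of adaptors was 0.073 with loess, 0.056 with the well above background filter or no filter, 0.078 with the filter in 1 channel, 0.035 with the mean over probes, 0.016 with the GC trend removed and 0.047 to 0.053 without replicate 1 or 2. The cause of these shifts was not tested. Signal over background limits Spry4 and the second probes of Fgfr2 and Etv1.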
